A study of Arabidopsis thaliana with 6 samples.

Results

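The regions described here are the places where the stem cell regulator WUSCHEL (WUS), in its inducible form WUS-GR, was recovered over an annotated non-coding RNA gene of Arabidopsis thaliana. Touching windows of the WUS-GR RFP-trap list were merged into 10087 regions. A region was taken when its midpoint lay inside a nuclear gene of the TAIR10.1 annotation with the biotype lncRNA, antisense_RNA, ncRNA or miRNA, and inside no protein-coding gene. This rule took 325 of the 10087 regions, or 3.22%, made of 1442 of 42402 windows. Of the 10087 midpoints, 399 lay in a non-coding locus, and 74 of these were left out because a protein-coding gene also contained them. A further 224 regions touched a non-coding locus only with their edge. The rule used position alone, so marks, sequence and neighbours were not part of it.

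The chromatin came from whole seedlings 5 days after germination, and every group received 25 µM dexamethasone for 2 h according to the labels. The WUS-GR seedlings had the genotype pUBI10::mCherry-GR-linker-WUS, in which the pUBI10 promoter drives the fusion in most cells, so the lists describe seedling tissue with WUS present far outside the stem cell niche. The study used 1 homozygous line with a single insertion, and the non-transgenic accession Col-0 was the control. DNA bound by RFP-trap, which holds mCherry, by an antibody to histone H3 acetylated at K9 and K14 (H3K9/K14ac) or by an antibody to H3K27me3 was pooled from several preparations before sequencing, and each of the 6 groups is represented by 1 list of windows in which that genotype exceeded the other. A histone region of the Col-0 list is called lost and one of the WUS-GR list gained. The labels name more than 1 sequencing library, which the lists do not keep apart. With 1 list per group the spread between libraries cannot be seen, and there are no p-values. Shares are given with exact (Clopper-Pearson) 95% confidence intervals, written as 95% CI, which cover counting error only. The lists hold no scores and no reads, so the depth behind them is unknown.

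WUS is a homeodomain transcription factor made in the organizing centre of the shoot apical meristem. It moves into the overlying stem cells, keeps them undifferentiated and acts mainly as a repressor, in part through TOPLESS-type corepressors and histone deacetylation. Long non-coding RNAs are transcripts with no long reading frame. In plants many of them start close to a protein-coding gene, either on the same strand or divergently from the opposite strand. H3K9/K14ac marks the start of active genes, and H3K27me3 is the Polycomb mark of repressed genes. The hexamer CACGTG, called the G-box, is bound by bHLH and bZIP factors and has been linked to WUS binding.

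The sequences that follow are from TAIR10.1, plus strand, 5′ to 3′, with every CACGTG in capitals. The first 3 are windows of up to 300 bp from the members with the most G-boxes, at AT2G09585 (chr2:18523337-18523636), AT4G09485 (chr4:17535017-17535316) and AT5G09170 (chr5:25436901-25437200), and each window holds 4.
AT2G09585: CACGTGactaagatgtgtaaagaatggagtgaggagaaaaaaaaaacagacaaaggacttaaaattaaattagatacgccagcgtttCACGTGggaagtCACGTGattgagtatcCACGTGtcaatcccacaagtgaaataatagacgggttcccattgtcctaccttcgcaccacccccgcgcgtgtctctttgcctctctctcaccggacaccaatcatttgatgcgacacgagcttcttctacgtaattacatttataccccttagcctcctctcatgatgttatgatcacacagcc
AT4G09485: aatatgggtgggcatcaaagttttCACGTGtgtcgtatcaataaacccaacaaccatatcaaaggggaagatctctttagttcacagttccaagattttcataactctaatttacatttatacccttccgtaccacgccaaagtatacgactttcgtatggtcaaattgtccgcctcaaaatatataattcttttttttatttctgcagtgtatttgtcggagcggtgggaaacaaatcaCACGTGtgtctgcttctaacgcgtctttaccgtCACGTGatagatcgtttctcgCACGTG
AT5G09170: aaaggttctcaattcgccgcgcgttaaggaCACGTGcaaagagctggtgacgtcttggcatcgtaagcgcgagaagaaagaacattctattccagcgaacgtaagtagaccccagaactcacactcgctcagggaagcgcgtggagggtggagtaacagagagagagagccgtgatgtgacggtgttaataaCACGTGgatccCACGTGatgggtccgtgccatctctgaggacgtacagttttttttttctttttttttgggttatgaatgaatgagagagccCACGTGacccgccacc

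Another 3 members are shown for their neighbours. AT1G07843 (chr1:19699201-19699500) lies upstream of NAC019 with 3 G-boxes, of which the closest pair start 8 bp apart. AT1G09577 (chr1:28467401-28467700) lies upstream of CLV1 with 1 G-box, and AT4G03525 (chr4:76501-76700, the whole member) upstream of YAB3 with none.
AT1G07843: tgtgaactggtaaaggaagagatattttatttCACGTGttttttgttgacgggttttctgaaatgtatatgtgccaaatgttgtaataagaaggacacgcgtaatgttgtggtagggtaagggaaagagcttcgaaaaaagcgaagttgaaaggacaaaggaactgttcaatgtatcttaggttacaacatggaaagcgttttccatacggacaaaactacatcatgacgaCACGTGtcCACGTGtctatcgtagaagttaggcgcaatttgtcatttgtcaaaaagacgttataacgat
AT1G09577: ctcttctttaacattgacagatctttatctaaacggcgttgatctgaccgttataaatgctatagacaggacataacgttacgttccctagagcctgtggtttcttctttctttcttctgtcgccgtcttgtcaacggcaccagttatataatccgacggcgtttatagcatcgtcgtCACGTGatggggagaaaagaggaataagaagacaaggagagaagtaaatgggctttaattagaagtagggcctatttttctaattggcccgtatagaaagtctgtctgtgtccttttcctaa
AT4G03525: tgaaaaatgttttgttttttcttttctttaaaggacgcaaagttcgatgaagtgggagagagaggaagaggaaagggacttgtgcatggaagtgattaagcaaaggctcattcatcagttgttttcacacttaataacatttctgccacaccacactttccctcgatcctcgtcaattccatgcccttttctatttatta

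Bound loci were nearly all lncRNA genes. The 325 members lay in 364 of the 4106 nuclear non-coding loci (8.87%). Among lncRNA genes 343 of 3480 held a member (9.86%), and among ncRNA genes 19 of 221 (8.60%). By contrast, only 1 of 79 antisense_RNA genes (1.27%) and 1 of 326 miRNA genes (0.307%) did. The miRNA locus was AT5G03671 (MIR10515) with a member at chr5:951201-951500, and the antisense locus was AT2G08915 with a member at chr2:15890601-15890900, 119 bp upstream of SOUL-1. Loci shorter than the windows have less room to hold a midpoint, and the rule leaves out midpoints in coding genes, which lowers the count for loci antisense to such genes. The part of either in these shares was not tested. Of 15 well-known non-coding RNA genes listed for the search, 0 held a member. Non-coding loci outside protein-coding genes cover 1138028 of 119146348 bp, or 0.955% of the genome, against 3.22% of the WUS-GR regions.

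Most loci held a single region. A single member was found in 360 loci, 2 in AT5G00875, 3 in AT1G26208, and 4 in the overlapping pair AT2G05205 and AT2G05215. In 48 members (14.8%) the midpoint lay in 2 loci at once, and in 47 of these the pair was on opposite strands, so the list cannot tell which transcript's gene was bound. For such members the locus with the nearer start is used below. The regions were spread over the chromosomes, with 86, 55, 60, 42 and 82 on chromosomes 1 to 5, between 2.88% and 3.48% of the WUS-GR regions of each.

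The members were somewhat longer than other regions. Their median length was 400 bp (interquartile range 300 to 500 bp, longest 2600 bp), against a median of 300 bp over all 10087 regions. Regions in no gene and up to 2500 bp upstream of the nearest protein-coding start also had a median of 400 bp (interquartile range 200 to 600 bp). The 6 longest were at AT5G02955 (2600 bp), AT2G09445 (2200 bp), AT4G07245 (2000 bp), AT1G04607 (1800 bp), AT3G01775 (1500 bp) and AT3G63445 (1500 bp). The neighbour of AT4G07245 was YSL1, which encodes a transporter of metal-nicotianamine complexes, and that of AT1G04607 was PLL5, a phosphatase of the POLTERGEIST family. AT3G63445 lies across CKX6, which encodes a cytokinin-degrading oxidase.

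The regions were about as long as the loci they lay in. The midpoint was within 500 bp of the start site (TSS) of its own locus in 290 of 325 members (89.2%), with a median distance of 161 bp, and 198 regions (60.9%) covered that TSS. Bound loci had a median length of 372 bp, so a midpoint anywhere in most of them is close to the start. Only 81 regions (24.9%) lay wholly inside 1 locus, and the remainder ran past an end of it.

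**Figure D1:**
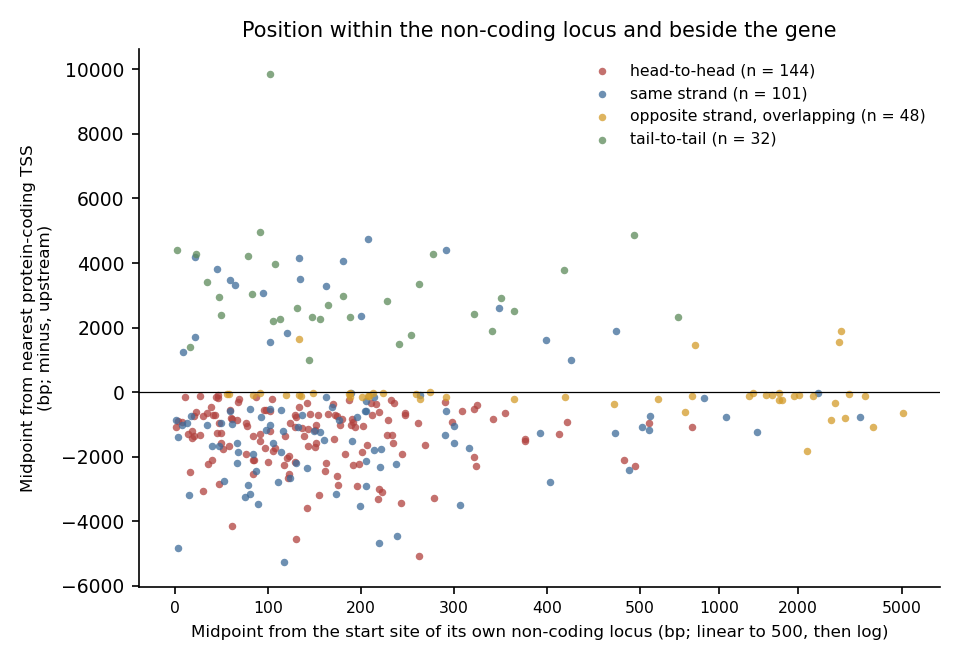
Each point is 1 of the 325 members, with the distance in bp of its midpoint from the start of its own non-coding locus on the horizontal axis (linear to 500 bp, then logarithmic) and from the nearest protein-coding TSS on the vertical axis (minus, upstream), coloured by how locus and gene lie to each other. Most points crowd within 500 bp of the non-coding start. The 144 head-to-head members all lie upstream of the gene because the definition of that arrangement requires it.

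Divergent pairs were the most frequent arrangement. In 144 members (44.3%) the locus and the gene with the nearest TSS lay head-to-head, on opposite strands with their starts facing apart and no overlap. Another 101 (31.1%) were on the same strand, 48 (14.8%) were on opposite strands and overlapped, and 32 (9.85%) were tail-to-tail. Opposite strands therefore made up 224 of 325 (68.9%). In head-to-head pairs the median distance between the starts was 1010 bp (12 to 4806 bp). For comparison, loci whose own midpoint is in no protein-coding gene were arranged head-to-head in 157 of 335 cases (46.9%) where they held a member and in 887 of 2375 (37.3%) where they did not. The same-strand share ran the other way, at 36.4% and 44.3%. Overlap with a coding gene was less frequent among bound loci, at 62 of 364 (17.03%) against 1557 of 3742 (41.6%), but the rule leaves out midpoints in coding genes and so lowers the first share.

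The members lay further from coding genes than other WUS-GR regions. The midpoint was within 1000 bp of the nearest protein-coding TSS in 132 members (40.6%, 95% CI 35.2 to 46.2%), against 5915 of 10087 regions (58.6%), and more than 2500 bp away in 66 (20.3%), against 14.3%. The median distance was 1271 bp against 706 bp. Upstream of the TSS were 269 of 325 midpoints (82.8%), against 63.4% of all regions. The rule again bears on this, because midpoints inside coding genes were not taken. Among loci whose own midpoint is in no protein-coding gene, that midpoint was within 1000 bp of a protein-coding TSS in 113 of 335 with a member (33.7%, 95% CI 28.7 to 39.1%) and in 836 of 2375 without one (35.2%), a share inside that interval. Counted by arrangement, 61 of 144 head-to-head members, 42 of 48 overlapping ones, 28 of 101 on the same strand and 1 of 32 tail-to-tail were within 1000 bp.

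**Figure D2:**
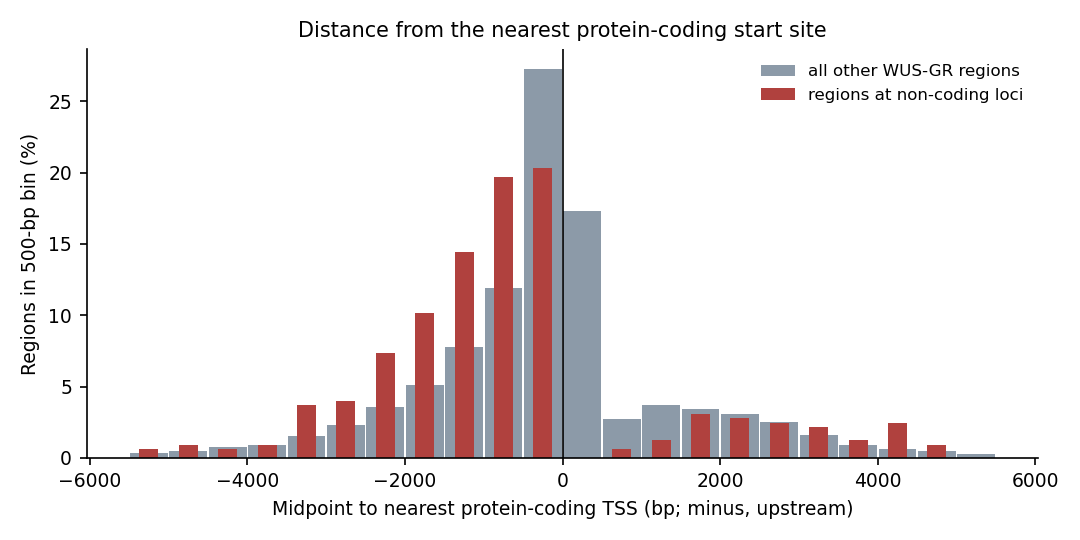
Bars give the percentage of regions in each 500-bp bin of distance from the midpoint to the nearest protein-coding TSS (minus, upstream) for the members in red and the other WUS-GR regions in grey. Members are spread over the first 2500 bp upstream, with 20.3% in the bin next to the TSS, where other regions peak at 27.3%. None are in the first 500 bp of genes, since the rule leaves out midpoints inside coding genes.

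The neighbours were 314 distinct protein-coding genes, 1.14% of 27444. Of these, 175 (55.7%) had the midpoint of a WUS-GR region outside the members in the gene or in its 2500 bp upstream. Of the 230 genes with a member in those 2500 bp, 109 (47.4%) had no such midpoint in the gene or upstream. Further members at the same gene were not counted here, and 9 of the 314 genes were nearest to 2 or more members. The 55.7% and 47.4% were not set beside shares over all protein-coding genes or neighbours of other WUS-GR regions. They therefore do not show whether these neighbours are unusual.

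Among genes studied earlier as WUS targets, CLV1 and YAB3 were the nearest gene of a member, 2 of the 6 listed. CLV1 encodes the receptor kinase that perceives the CLV3 peptide and restrains the stem cell population. Its member, chr1:28467201-28467900, covered the whole of AT1G09577 (chr1:28467241-28467900, plus strand) with 700 bp, and its midpoint was 579 bp upstream of the CLV1 start. The pair is head-to-head with 270 bp between their starts. No other WUS-GR midpoint was in CLV1 or its 2500 bp upstream. A second member, at AT1G09583 (chr1:28469901-28470300), lies further out on the same side, and its nearest TSS is that of LCR67, 2257 bp away. No changed histone region of any list was within 1000 bp of the CLV1 member.

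YAB3 encodes a YABBY factor of the abaxial side of leaves. Its member was short, 200 bp at chr4:76501-76700, and covered the 3′ part and end of AT4G03525 (chr4:76411-76689, plus strand), 1024 bp upstream of YAB3 and head-to-head with it. It was also the only WUS-GR region of that gene. A lost H3K9/K14ac region of 500 bp, chr4:76001-76500, began at the next base on the side of YAB3 and covered the start of AT4G03525. They touch without sharing a base.

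Auxin and cytokinin genes were among the neighbours. Of 168 auxin genes 7 were the nearest gene of a member (4.17%), against 314 of all 27444 protein-coding genes (1.14%). Beside LAX1, an auxin influx carrier, the member was 336 bp upstream at AT5G00745. At IAA9, an Aux/IAA repressor, it crossed the TSS with its midpoint at -158 bp and the locus AT5G09425 antisense to the gene start. For NPH4, which encodes the activating factor ARF7, it lay 1271 bp upstream at AT5G03205. The other 4 were the SAUR-type genes SAUR15 (1243 bp downstream of the TSS), AT2G21210 and AT4G34770, and AT1G20470. Of 69 listed cytokinin and other hormone regulators 4 were nearest genes, and 3 of them act on the cytokinin level. IPT7, a synthesis gene, had a member 2355 bp downstream of its TSS. LOG4, which activates the hormone, had one at -84 bp, with AT3G08340 overlapping it on the other strand. CKX6 had a 1500-bp member ending 57 bp before its TSS. The fourth, JAZ1, is a repressor of jasmonate signalling, with a 700-bp member 727 bp upstream.

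Transcription factor genes of the listed families were nearest genes in 8 of 414 cases (1.93%). They were NAC019 (-868 bp) and NAC032 (-839 bp), the branching repressor BRC1 (-2289 bp), MYB16 (-1671 bp), MYB20 (-1821 bp), MYB21 (-1849 bp), WRKY6 (-4456 bp) and ERF4 (4397 bp downstream). CRF2, a cytokinin response factor that the study expressed in stem cells, had a member 2922 bp upstream. In all, 22 members had a listed neighbour, 10 of them head-to-head, and for 10 of the 22 genes, among them CLV1, YAB3, BRC1, CKX6 and LOG4, no other WUS-GR midpoint lay in the gene or its 2500 bp upstream. At CKX6 another WUS-GR region, 2144 to 3043 bp from the TSS, did overlap the end of the gene, with its midpoint beyond it. The lists are shares of genes of unequal upstream space, so the percentages are descriptions and not enrichments. The same share was 1.14% over all protein-coding genes. It was not taken for genes nearest to WUS-GR regions in general, so a trait particular to the members cannot be read from these lists.

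The G-box was present in 104 of 325 members (32.0%, 95% CI 26.96 to 37.4%), against 22.6% of all WUS-GR regions, and 28 members held at least 2. In windows of equal length, 300 bp around each midpoint, the shares were 26.8% (95% CI 22.0 to 31.9%) and 18.6% (95% CI 17.8 to 19.3%). Members were richer in G and C, with a median of 37.3% against 34.7% in these windows, and the G-box is itself a GC-rich word. In windows below 34% GC it was found in 12.9% of members (95% CI 6.05 to 23.0%) and 9.77% of other regions, between 34 and 38% GC in 17.4% (95% CI 10.8 to 25.9%) and 18.2%, and at 38% GC or more in 40.4% (95% CI 32.4 to 48.8%) and 32.6%. Each of the 3 members' intervals includes the share of the other regions in its GC class, and how far GC content accounts for the pooled difference was not tested. Head-to-head members held the word most often (56 of 144, 38.9%), followed by those on the same strand (31.7%), tail-to-tail (21.9%) and overlapping (18.8%), and these intervals overlap.

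**Figure D3:**
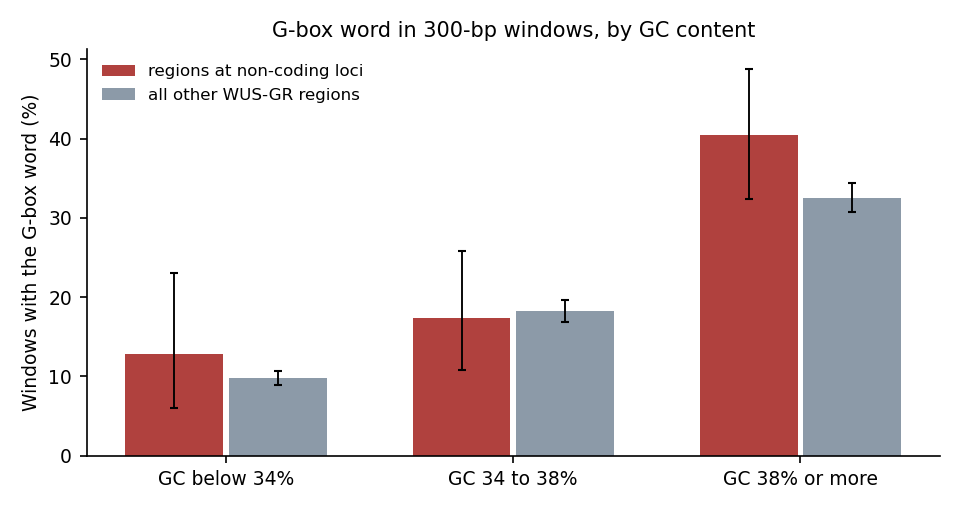
Bars give the percentage of 300-bp windows around region midpoints that hold CACGTG, in 3 classes of GC content, for members in red and the other WUS-GR regions in grey, with exact 95% confidence intervals. The share rises with GC content in both groups, from 12.9% to 40.4% in members and from 9.77% to 32.6% in the others.

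The contrast was wider against non-coding loci that held no member, some of which can still be touched by a WUS-GR region outside the members. In 300 bp around the locus midpoint CACGTG was present at 92 of 335 bound loci (27.5%, 95% CI 22.7 to 32.6%) and at 105 of 2375 others (4.42%, 95% CI 3.63 to 5.33%), counting loci whose midpoint is in no protein-coding gene. Between 250 bp before and 50 bp after the TSS of protein-coding genes the word occurred in 7.68%. Other words were counted on both strands over whole regions, which are longer in members. Their gaps were smaller in percentage points, but the words differ in frequency, so these gaps do not rank them. ACGCGC was in 10.2% of members and 8.37% of all regions, TGTCTC in 25.2% and 23.6%, TGTCGG in 9.85% and 10.4%, GAGAGAGA in 17.5% and 15.6%, and TGAATGAA in 3.08% and 5.50%. The member with the most G-boxes, 5 in 400 bp, was at AT2G09585, 811 bp upstream of AT2G44920 and head-to-head with it. AT4G09485 and AT5G09170 had 4 each, and RGA1, which encodes a DELLA repressor of gibberellin signalling, had 3 in the member at AT2G04015, 1582 bp upstream. The others with 3 were at AT1G07843, AT5G01475, AT3G03035, AT5G08975 and AT2G09070.

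Changed histone regions seldom reached the members. A lost H3K9/K14ac region shared at least 1 bp with 8 of 325 (2.46%, 95% CI 1.07 to 4.79%), against 4.98% of all WUS-GR regions, and a gained one with another 8 (2.46%, 95% CI 1.07 to 4.79%), against 3.79%. For the lost list the interval leaves out the share of all regions. It includes the 3.81% of regions in no gene and up to 2500 bp upstream of the nearest protein-coding TSS. For the gained list the interval includes both that of all regions and the 2.97% of upstream ones. Lost H3K27me3 overlapped 6 (1.85%, 95% CI 0.680 to 3.98%), against 1.72%, and gained H3K27me3 overlapped 1 (0.308%), against 0.347%. Taken over the 4 lists, 21 members (6.46%, 95% CI 4.04 to 9.71%) shared a base with a changed region. The same share was 10.5% over all regions, 16.9% for regions in a protein-coding gene and 8.30% for those upstream of one and in no gene, which is inside the interval of the members. Within 1000 bp lay lost H3K9/K14ac for 44 members (13.5%, 95% CI 10.01 to 17.75%) and gained H3K9/K14ac for 41 (12.6%, 95% CI 9.21 to 16.72%). The shares were 18.5% and 16.5% for all regions, and 17.15% and 16.03% for upstream ones. Of these, only the 18.5% lies outside the interval of the members. Any of the 4 lists was within 1000 bp of 93 members (28.6%, 95% CI 23.8 to 33.9%), below the 37.4% of upstream regions in no gene and the 39.1% of all regions. These upstream regions lay nearer to start sites, with 70.55% within 1000 bp of a protein-coding TSS, against 40.6% of members. None of them lay over 2500 bp away, against 20.3% of members. The part of this distance in the lower share of members was not tested.

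**Figure D4:**
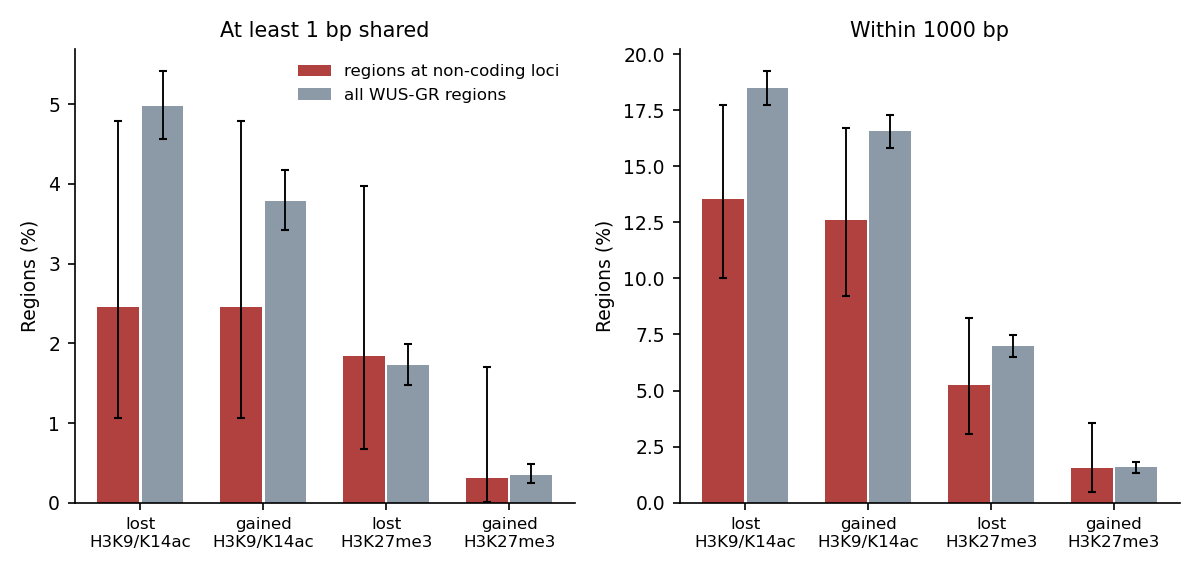
Bars give the percentage of regions that share at least 1 bp with (left) or lie within 1000 bp of (right) each kind of changed histone region, for the 325 members in red and all 10087 WUS-GR regions in grey, with exact 95% confidence intervals. Members are lower for lost H3K9/K14ac (2.46% against 4.98%) and for gained H3K9/K14ac (2.46% against 3.79%, inside the interval of the members), and for H3K27me3 the intervals include the share of all regions.

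Over whole non-coding loci the shares of bound loci were near or below those of all loci. The counts are small and no intervals were taken, so a difference cannot be read from them. Lost H3K9/K14ac lay in 18 of 364 bound loci (4.95%), against 6.06% of all 4106 loci, and gained H3K9/K14ac in 15 (4.12%), against 6.50%. Lost H3K27me3 lay in 8 (2.20%), against 3.65%, and gained H3K27me3 in 1, against 0.731%. The rule leaves out midpoints in coding genes, and bound loci overlap coding genes less often. WUS-GR regions in a coding gene overlapped lost H3K9/K14ac in 8.31% of cases, against 4.98% of all regions. For lost H3K27me3 the shares were 1.67% and 1.72%. Whether the shares of bound loci differ from those of all loci was not tested, nor was the part of the rule in them.

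Most overlaps with lost acetylation were at members that reached into a neighbouring gene. Of the 53 members with a base in a protein-coding gene 5 overlapped lost H3K9/K14ac (9.43%), against 3 of the other 272 (1.10%). BZIP61, which encodes a bZIP factor, is an example. Its 500-bp member at AT3G09095 (chr3:21523301-21523800) crossed the TSS, and 200 bp of it lay in a lost region of 1500 bp that covered the first part of the gene, followed at once by a lost H3K27me3 region of 500 bp. At XIK, a myosin heavy chain gene, all 300 bp of the member at AT5G03155 were in a lost region, with the midpoint 20 bp before the TSS. At AT5G40460 all 300 bp at AT5G06065 lay in a lost region of 3500 bp. The other 5 were at AT2G09445, AT3G03915 and AT3G08115 (200 bp shared each), and AT5G15845 (100 bp, antisense to COL1, a CONSTANS-like gene) and AT5G08195 (100 bp).

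Gained acetylation covered the 400-bp member at AT2G08305, upstream of AT2G28940, and 400 bp of the member at AT4G07905, an antisense locus at the start of the beta-glucosidase gene BGLU9. Near AT2G41400 a single gained region of 1000 bp reached the 2 members at AT2G09260 (300 bp) and AT2G09265 (200 bp). AT2G36792, antisense to the glucosyltransferase gene UGT73C6, was the site of both gained H3K9/K14ac and lost H3K27me3, each over 100 bp of the member. The remaining 3 gains were at AT2G18735 (200 bp), AT1G06633 (100 bp) and AT3G06355 (100 bp).

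Lost H3K27me3 covered all 600 bp of the member at AT3G02805, upstream of the autophagy gene APG12B, in a region of 1000 bp. The other overlaps were 200 bp at AT2G07860, AT2G09630 (upstream of AHL22, an AT-hook gene) and AT5G09615 (upstream of DIM1B), and 100 bp at AT2G09135. The only gained H3K27me3 was at AT3G06355, where it coincided with gained H3K9/K14ac over the single 100-bp window of the member. This window overlaps the ribosomal RNA gene AT3G41979, a repeated sequence whose part in these changes was not tested. Without it, gained H3K27me3 overlapped 0% and gained H3K9/K14ac 2.16% of the members.

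Changed marks were found in the bodies of neighbouring genes at shares close to those of genes near any WUS-GR region, with every interval including that share. Lost H3K9/K14ac was in 63 of 314 (20.1%, 95% CI 15.8 to 24.9%), against 16.5% of all protein-coding genes and 23.1% of the nearest genes of all WUS-GR regions. Gained H3K9/K14ac was in 76 (24.2%, 95% CI 19.6 to 29.3%), against 19.5% and 23.5%. Lost H3K27me3 was in 24 (7.64%, 95% CI 4.96 to 11.2%), against 6.82% and 6.65%, and gained H3K27me3 in 4 (1.27%, 95% CI 0.348 to 3.23%), against 1.75% and 1.82%. Both lost and gained H3K9/K14ac were in 13 of the 314 bodies (4.14%), a count with no share over all genes to set beside it. Among the 22 genes of the lists, 0 had lost H3K9/K14ac in the body, 3 had gained it (ERF4, MYB21 and NPH4), and 2 had lost H3K27me3 (MYB21 and LAX1). None of the 22 listed members overlapped a changed region of the 4 lists.

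**Figure D5:**
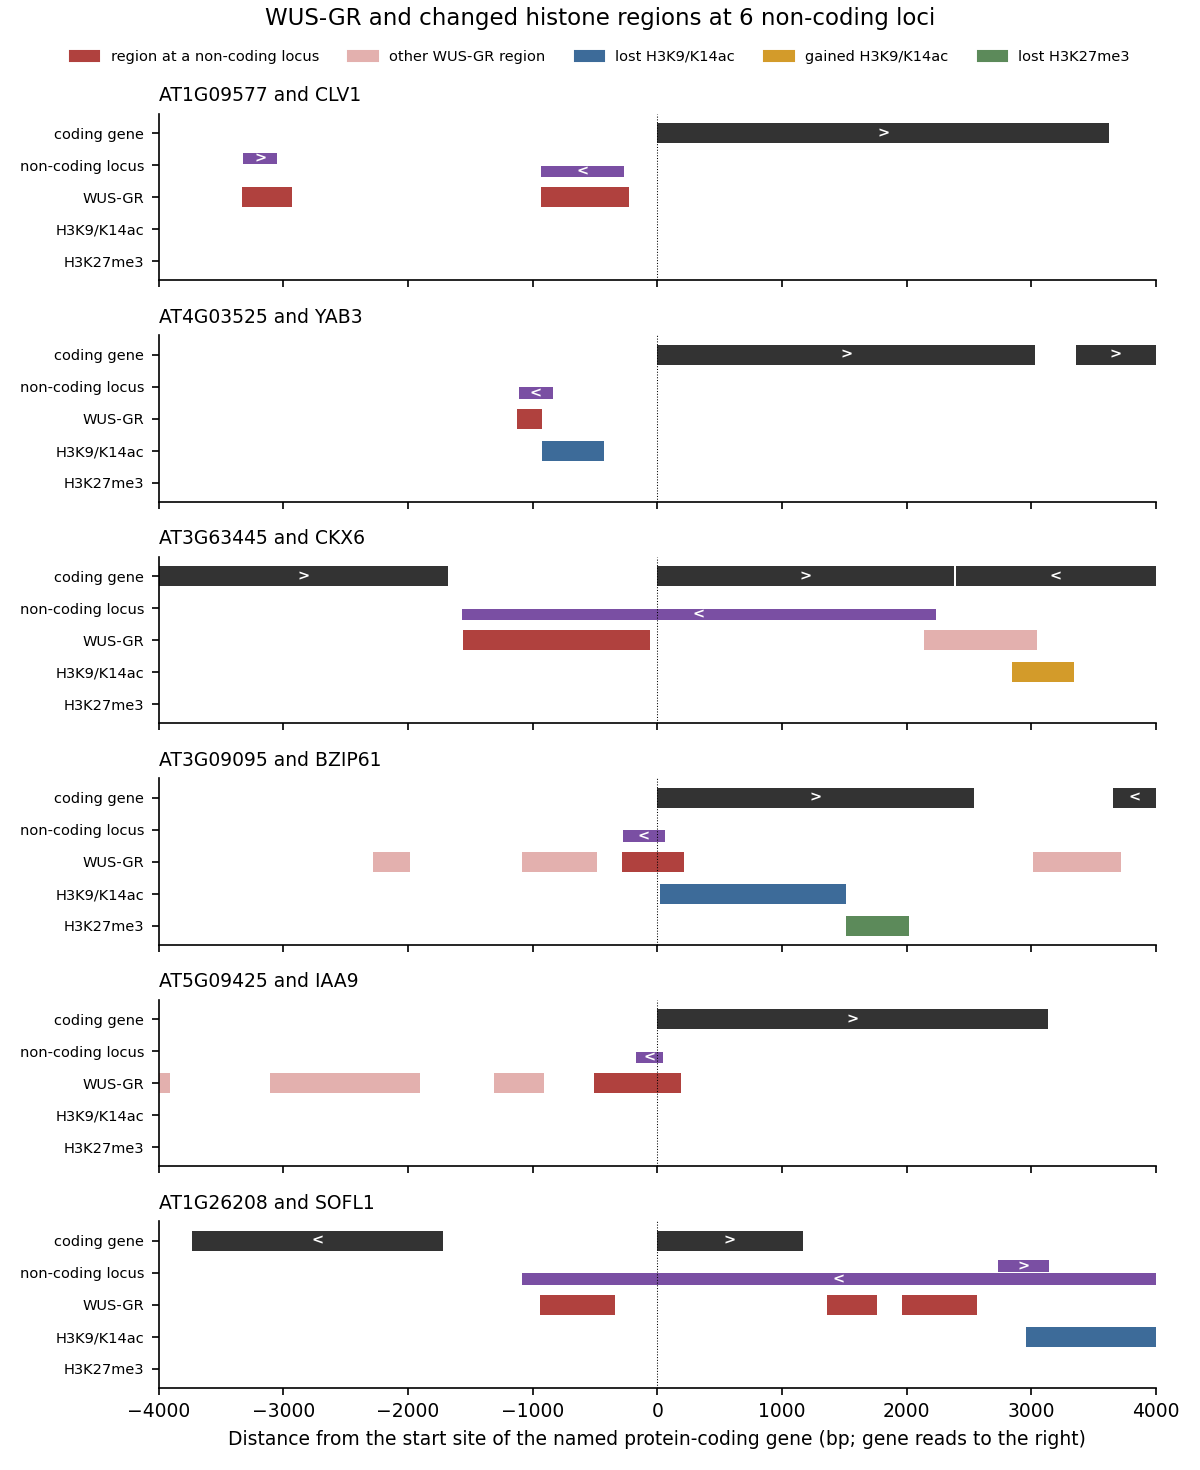
Maps of 6 loci, drawn to scale within 4000 bp of the start of the named protein-coding gene, which reads to the right, show protein-coding genes, non-coding loci (arrowheads give the strand), WUS-GR regions and changed histone regions. At CLV1 and YAB3 the member lies over a divergent locus 579 and 1024 bp upstream, with lost H3K9/K14ac touching it only at YAB3, and at BZIP61 lost H3K9/K14ac begins inside the member.

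Locus AT1G26208 (chr1:9065955-9071468, minus strand) was the one with 3 members. It runs antisense across SOFL1, a gene of the SOB five-like family that influences cytokinin levels, and its start lies 328 bp from that of AT1G26220. The members were 639 bp upstream of SOFL1, 1561 bp downstream of its TSS, beyond its end, and 1840 bp upstream of AT1G26220. They were 600, 400 and 600 bp long and held no G-box. Lost H3K9/K14ac lay within 1000 bp of the third member and in the body of AT1G26220.

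Some members lie in sequence that is not unique. The 4 members at AT2G05205 and AT2G05215 are near AT2G07689 on chromosome 2, and in 3 of them all 50-base words also occur in an organelle genome, against 11 of 10087 regions with more than 50% of such words. Reads there cannot be assigned to the nucleus with certainty. The shares of histone overlap without these 3 members were 2.48% for lost and for gained H3K9/K14ac, 1.86% for lost H3K27me3 and 0.311% for gained H3K27me3. In the control direction, 0 of the 325 members overlapped a region where Col-0 exceeded WUS-GR, as the windows of the 2 lists cannot coincide, and 14 (4.31%) lay within 1000 bp of one, against 3.87% of all regions.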

How the data were processed

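Per the labels, BWA and the TAIR10 build were used. According to the study's methods, hiddenDomains compared the genotypes in windows of 100 bp (RFP-trap) or 500 bp (histones), kept above a posterior threshold. The authors deposited 6 lists of window positions only, with no signal, count or score.

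Touching windows were merged in Python 3.11.15 with pandas 2.3.3. Following the methods, gained and lost regions of a mark closer than 73 bp were removed, which left 5110 of 9046 lost and 5487 of 9436 gained H3K9/K14ac regions, and 2570 of 6917 lost and 671 of 4379 gained H3K27me3 regions. Gene models, names and sequence came from the NCBI annotation of TAIR10.1, whose chromosomes match TAIR10, and positions count from 1. Neighbours are genes with the nearest TSS to the midpoint, and gene starts are those annotated. Intervals used scipy 1.17.1. The overlap functions were tested on simulated regions.

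Members and gene lists were chosen with earlier results of these data known. The genes named were the 6 longest members, loci with 3 or more members, miRNA and antisense members, members beside listed genes, the members sharing most bases with each histone list and those with most G-boxes. AT5G00875, AT1G09583 and its neighbour, the 3 histone overlaps below the first 5 of each acetylation list, the sixth of lost H3K27me3, and the members with 3 G-boxes beyond the first 5 were named after their values were seen. The label's dexamethasone concentration was followed, since the methods give another.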

Additional observations from a re-analysis of the deposited data

How the results depend on the processing

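No paired analysis was possible because the lists do not keep libraries apart (1 list per group). Of 49 alternatives over 12 results, 33 stayed within the limits of the main value and 16 moved. Keeping all merged histone regions, before the 73-bp removal, gave overlaps of 4.31% for lost and for gained H3K9/K14ac, 14 members each in place of 8, 6.15% for lost and 1.85% for gained H3K27me3, and raised neighbours with lost and gained H3K9/K14ac in the body to 32.8% and 37.6%. Counting members within 1000 bp gave 13.5% for lost H3K9/K14ac, 12.6% for gained H3K9/K14ac, 5.23% for lost H3K27me3 and 4.31% for Col-0-enriched RFP-trap regions. Lost H3K9/K14ac fell to 0.615% when histone regions under 1000 bp were dropped and to 1.03% with regions that share a base with a locus and none with a coding gene. That rule leaves out members which reach into a gene, where 5 of the 8 overlaps lie. With regions of at least 300 bp, gained H3K27me3 overlapped 0% of members, since its only member is 100 bp long. Members near a protein-coding TSS came to 48.6% from the region edge and 20.3% within 500 bp. The G-box was in 20.9% of central 200-bp and 26.8% of 300-bp windows. The number of members ran from 251 to 390 and that of loci from 282 to 448. Leaving out members in repeated sequence, an alternative chosen after seeing the data, moved no overlap beyond these limits, while leaving out the member in a ribosomal RNA gene, also chosen afterwards, moved gained H3K27me3 to 0%. The lists hold no scores, so a stricter threshold could be approached only through region length, and the depth limits that follow from the reads are unknown.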
